A study of Drosophila melanogaster with 6 samples.

Results

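The genes described here are 8 components of planar polarity in Drosophila: the core genes frizzled (fz), dishevelled (dsh), Van Gogh (Vang), prickle (pk) and starry night (stan), and the Fat-Dachsous genes fat (ft), dachsous (ds) and four-jointed (fj). They were taken by their CG numbers from the 9073 genes listed, and all 8 were among them. Messenger RNA was sequenced from whole late-blastoderm embryos of Oregon R, a wild-type stock, just before gastrulation. When 0 to 1 h old, embryos had been injected with water (3 libraries) or, to silence the pair-rule genes even-skipped (eve) and runt (run), with a double-stranded RNA to each at 1 µg/µl (3 libraries, here called dsRNA). Each library held about 50 embryos that were kept at 18 °C and picked by stage. The series asks which genes Eve and Runt, striped transcription factors of the trunk, act on.

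Planar polarity is the alignment of cells within the plane of an epithelium. In the wing the core proteins sort to opposite sides of each cell, with Frizzled and Dishevelled facing Van Gogh and Prickle of the neighbouring cell, and the cadherin Starry night (also called Flamingo) bridges the border. Fat and Dachsous are giant cadherins that bind each other between cells, and Four-jointed is a kinase of the Golgi that modifies their cadherin domains and so tunes that binding. In the early embryo, eve and runt direct the polarised cell rearrangements of germband extension, which were found not to need the core Frizzled pathway.

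Gene reads were 23234425 to 49364110 per library. Levels are normalised read counts, that is, reads divided by a size factor of the library, given as mean ± SD with n = 3 per group, and single values follow the order of replicates 1, 2 and 3. All 10 marker genes of the cellularising blastoderm, such as slam and bnk, were measured, at 1597 to 36005 normalised counts per kb of exon. Water replicate 2 stood apart, with a score of 60.6 on the first principal component against −27.7 to 5.61 for the other 5 libraries. In it, 13 of 13 measured maternally loaded RNAs were higher than in both other water libraries, and 9 of 10 blastoderm markers were lower. Of all 9073 genes, 3862 were higher and 3875 lower in it than in both other water libraries. As a check of the dsRNA, run had 3131, 2220 and 3557 normalised counts in the water libraries against 1975, 1922 and 1733 with dsRNA (log2 fold change −0.64 ± 0.18, SE, limma adjusted p = 0.999). All 3 dsRNA libraries were below all 3 water libraries for run, as for 3.36% of all genes. Without water replicate 2 its value was −0.83 ± 0.10 (limma adjusted p = 0.0521). The other target, eve, had 2827, 1699 and 3075 normalised counts in the water libraries against 2922, 2727 and 2325 with dsRNA, with the groups overlapping (log2 0.11 ± 0.23, SE, and −0.16 ± 0.11 without water replicate 2). The sign for eve thus turns with that library, and directions below refer to the labels.

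The 8 genes ranged from abundant to barely detectable at this stage. Levels per length are the mean of all 6 libraries in normalised counts per kb of exon. On that scale dsh was at 3078 ± 176 and fz at 2712 ± 213 (SD, n = 6). These were above 88.7% and 86.8% of the listed genes with an annotated length. Every listed gene had reads in at least 4 libraries, so silent genes are not counted in these shares. Vang followed at 678 ± 75.3, above 63.7%. The next levels were fj at 55.7 ± 18.9 and ft at 13.8 ± 9.19, above 32.8% and 21.7% of the same listed genes. Lowest were pk at 4.86 ± 1.00, ds at 2.24 ± 2.03 and stan at 0.217 ± 0.162.

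The order dsh, fz, Vang, fj, ft was the same in 6 of 6 libraries. Across libraries, however, the range of dsh overlapped that of fz and the range of fj overlapped that of ft. The order of dsh and fz rests on the exon lengths used. Before division by length fz had the higher mean, 10351 normalised counts against 8753 for dsh. The level of ft was above that of pk in 5 of 6 libraries, with water replicate 2 as the exception. The level of pk was above that of ds in 5 of 6, with water replicate 3 as the exception. Genes that mark later neurons, glia and muscle give a scale for the low end. Of 7 such genes 5 were measured, and Syt1 and Tm2 were not found among the listed genes. The neuronal RNA-binding protein gene elav was at 36.2 normalised counts per kb, the glial factor repo at 4.54, the muscle actin Act57B at 4.37, the synaptic nSyb at 3.17 and muscle myosin Mhc at 0.332. On average, transcripts of fz, dsh, Vang and fj thus stood above all 5 of these genes, and ft above 4 of them. The mean of stan was below each of the 5, but its order with Mhc varied by library. It was above Mhc in dsRNA replicate 1 (0.1511 against 0.1505) and dsRNA replicate 3 (0.413 against 0.154), from few reads.

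**Figure D1:**
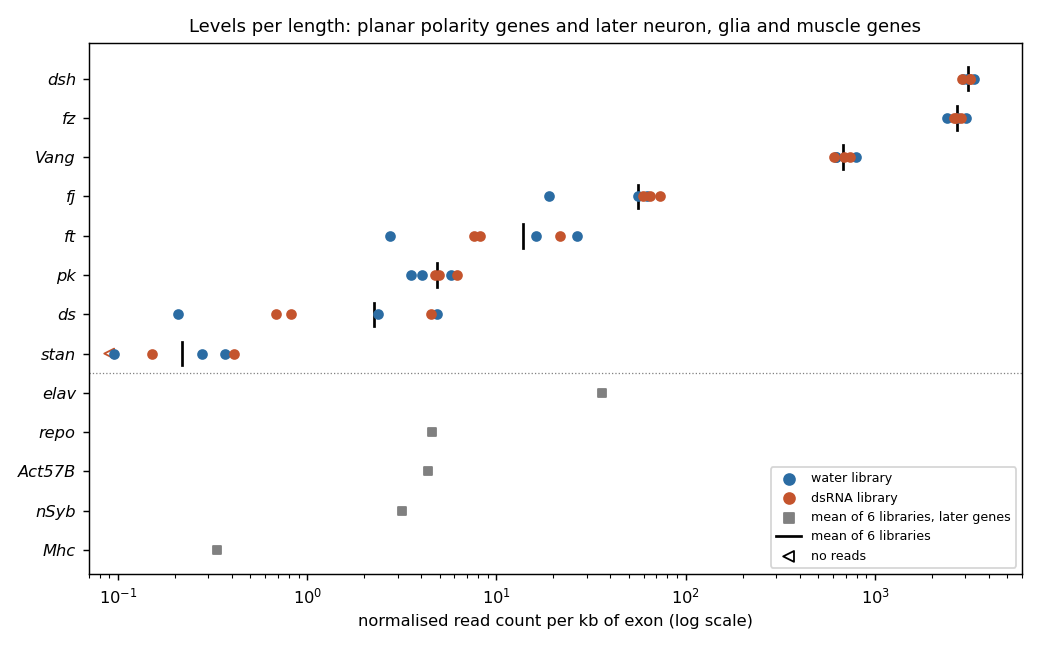
Normalised read counts per kb of exon (log scale) of the 8 planar polarity genes in each of 6 libraries, with the mean as a black bar, and the 6-library means of 5 later neuron, glia and muscle genes as squares. Levels run from 3078 for dsh to 0.217 for stan, which had no read in dsRNA replicate 2 (open triangle, placed at the left edge).

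None of the 8 planar polarity genes passed the test between dsRNA and water. With limma over all 9073 genes, 0 of 8 had an adjusted p at or under 0.05 (0.999 for each), 0 of 8 had an unadjusted p under 0.05, and limma-voom also called 0 of 8. The background was low: 0.011% of all genes passed (1 gene, noc, named after its value was seen; 0 with the replicate number as a block) and 2.27% had an unadjusted p under 0.05. In 0 of 8 did the dsRNA libraries lie wholly above or below the water libraries, against 6.35% of all genes (2.99% higher, 3.36% lower). The median log2 fold change of the 8 was −0.01, beside −0.002 for all genes. The design of 3 against 3 libraries bounds the 8 genes to very different degrees, and the confidence intervals below give those bounds. These intervals come from the fit without the replicate block. In whole embryos, fewer cells that express a gene and less RNA per cell cannot be told apart.

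**Figure D2:**
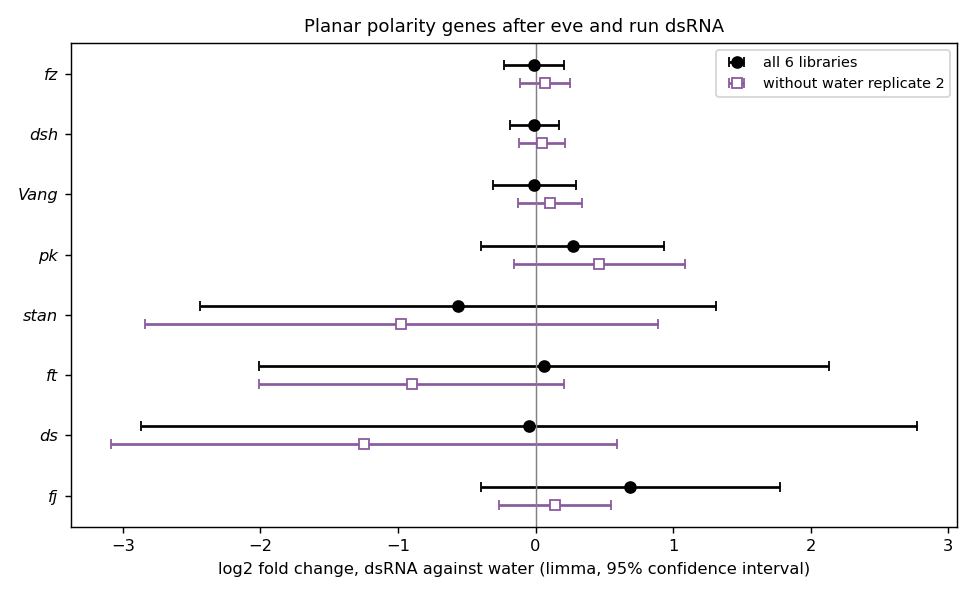
Log2 fold changes of the 8 genes, dsRNA against water, with 95% confidence intervals from limma, for all 6 libraries (filled circles) and without water replicate 2 (open squares). Every interval includes 0, and those of fz, dsh and Vang are narrow while those of stan, ft and ds span more than 3 log2 units with all libraries.

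The abundant core genes were measured most tightly. Frizzled encodes the membrane receptor of the core system and also serves as a Wnt receptor (fz, CG17697; BDGP6 chromosome 3L, 14274343 to 14368639, plus strand). It had 10517, 11540 and 9158 normalised counts in the water libraries against 10186, 10799 and 9905 with dsRNA. The dsRNA values lay inside the range of the water values. Means were 10405 ± 1195 and 10297 ± 457, with a log2 fold change of −0.01 and a 95% interval of −0.23 to 0.21, which is 0.854-fold to 1.16-fold.

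Dishevelled encodes the cytoplasmic protein that relays Frizzled signals both in planar polarity and in Wnt signalling (dsh, CG18361; BDGP6 chromosome X, 11355881 to 11358724, plus strand). Its counts were 8650, 9451 and 8242 in the water libraries against 9022, 9004 and 8150 with dsRNA. These 6 values lay within a 1.16-fold range, the narrowest of the 8 genes, and the groups overlapped. The log2 fold change was −0.01 with an interval of −0.18 to 0.17, or 0.88-fold to 1.12-fold. Both signs near 0 depend on the scaling: with upper-quartile scaling dsh and fz stood at 0.03 each.

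Van Gogh encodes the membrane protein opposite Frizzled (Vang, CG8075; BDGP6 chromosome 2R, 9103238 to 9106796, plus strand). It had 2182, 2775 and 2181 normalised counts in the water libraries against 2111, 2388 and 2578 with dsRNA. Water replicate 2 was the highest of the 6, and the other libraries ranged from 2111 to 2578 with the groups mixed. The log2 fold change was −0.01 with an interval of −0.31 to 0.30.

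Prickle encodes a LIM-domain protein that binds Van Gogh (pk, CG11084; BDGP6 chromosome 2R, 7150703 to 7223378, plus strand). The gene makes several protein forms, which a count per gene does not separate, and 11 other genes lie wholly within its span without sharing exon bases. It had 27.2, 38.6 and 23.8 normalised counts in the water libraries against 33.4, 31.9 and 41.9 with dsRNA, from 24 to 49 reads per library. The 3 dsRNA values lay above water replicates 1 and 3 but on both sides of water replicate 2. Means were 29.9 ± 7.74 and 35.7 ± 5.38 (log2 0.27 ± 0.28, SE; interval −0.40 to 0.94). Without water replicate 2 pk was the 1 of 8 genes whose groups did not overlap, as in 17.6% of all genes, at 0.46 ± 0.27 (limma adjusted p = 0.891). Without water replicate 3 or dsRNA replicate 3 the value was 0.13 or 0.15.

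Starry night was at the limit of detection (stan, CG11895; BDGP6 chromosome 2R, 10673345 to 10721138, plus strand). Over its 13535 bp of exon the water libraries held 5, 1 and 5 reads and the dsRNA libraries 3, 0 and 4, together 18 reads. Muscle Mhc had 5, 1 and 6 reads in the water libraries and 2, 4 and 1 with dsRNA. As CPM, with exact Poisson intervals that cover counting error only, stan was at 0.106 (95% interval 0.0528 to 0.189) over the water libraries and at 0.0671 (0.027 to 0.138) over the dsRNA libraries. The intervals overlapped, and a difference was not detectable at this depth. For the 0 of dsRNA replicate 2 the exact Poisson 95% interval reached 0.116 CPM. Of the listed genes with an annotated length, 10 had a lower mean per kb. The core system was thus represented by abundant RNA for fz, dsh and Vang, by little for pk, and by almost none for the bridging cadherin.

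**Figure D3:**
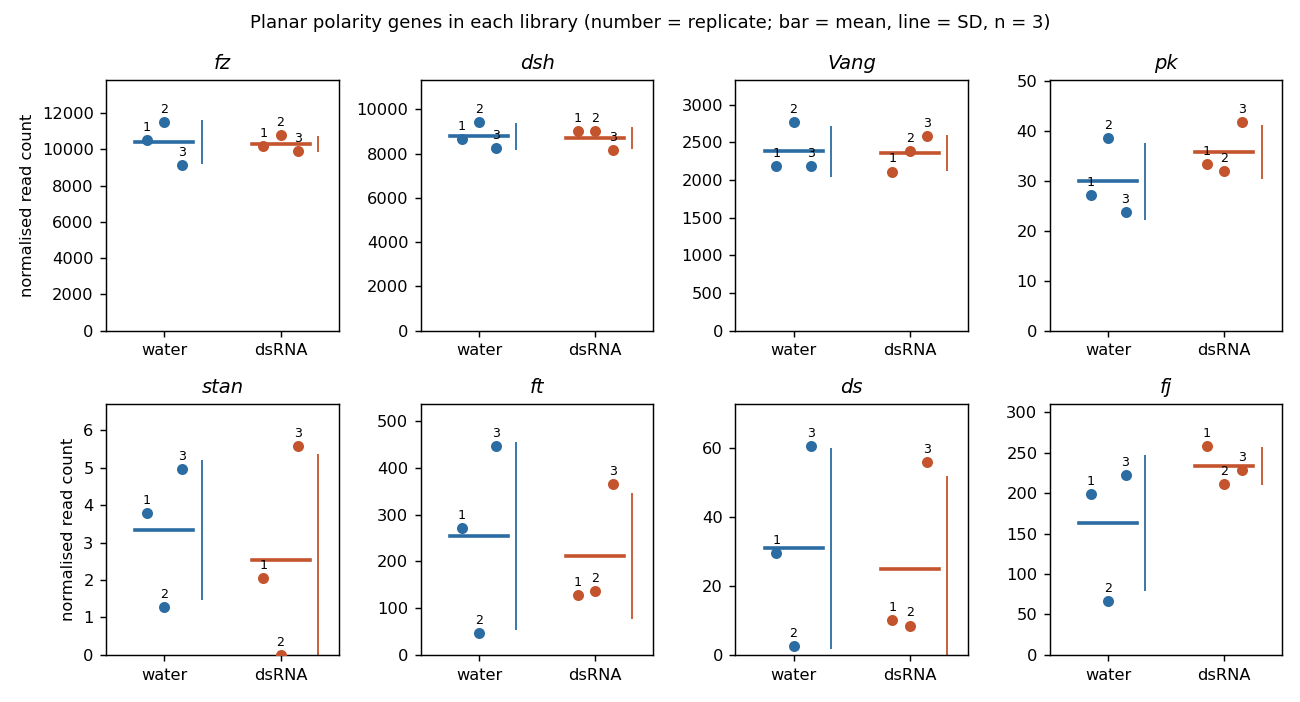
Normalised read counts of each gene in the 3 water and 3 dsRNA libraries, with the replicate number above each point, the group mean as a bar and the SD as a line (cut off at 0). For ft, ds and fj, water replicate 2 is the lowest of the 6 libraries, and for fz, dsh and Vang it is the highest.

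The giant cadherins ft and ds differed more between libraries of the same group than between groups. Fat is a receptor that feeds both planar polarity and Hippo growth control (ft, CG3352; BDGP6 chromosome 2L, 4198404 to 4221796, minus strand). It had 271, 46.3 and 447 normalised counts in the water libraries against 128, 137 and 366 with dsRNA. Water replicates 1 and 3 and dsRNA replicate 3 were high, and water replicate 2 was 9.64-fold below the highest library. Means were 255 ± 201 and 210 ± 135, a 0.826-fold level, while the mean of log2 values differed by 0.06 ± 0.87 (SE), in the opposite sign, with an interval of −2.01 to 2.13. Counting error was small beside this spread: CPM was 1.36 (exact Poisson 95% interval 0.952 to 1.88) in water replicate 2 and 13.6 (12.4 to 14.9) in water replicate 3.

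Dachsous, the ligand of Fat (ds, CG17941; BDGP6 chromosome 2L, 640013 to 714983, minus strand), followed the same libraries. It had 29.5, 2.57 and 60.6 normalised counts in the water libraries against 10.2, 8.52 and 55.9 with dsRNA. These values came from 39, 2 and 61 reads in water and from 15, 8 and 40 reads after dsRNA. Again water replicates 1 and 3 and dsRNA replicate 3 were the 3 highest libraries and water replicate 2 the lowest. Means were 30.9 ± 29.0 and 24.9 ± 26.9 (log2 −0.05 ± 1.18, SE; interval −2.87 to 2.77). An annotated antisense RNA (lncRNA:CR44988) covers 125 bp, 1.01%, of its exons, and reads of the 2 genes there can be told apart only if strand was used in counting.

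The within-group SD of ft and ds, 1.34 and 1.82 on the log2 scale, exceeded that of 98.8% and 99.9% of all genes. That of dsh, 0.09, exceeded 22.3%. Reads of ds were 9.8% (exact binomial 95% interval 7.06 to 13.2), 5.26% (0.644 to 17.7) and 11.9% (9.26 to 15.1) of the sum of ds and ft reads in water replicates 1, 2 and 3. After dsRNA they were 7.39% (4.19 to 11.9), 5.84% (2.55 to 11.2) and 13.2% (9.63 to 17.6). All 6 intervals overlapped, and they are wide where ds has few reads. The 3 libraries with the most ft also had the 3 highest shares. Overlap of single-library intervals does not test a trend, and whether the share rises with the level of ft was not tested.

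Four-jointed (fj, CG10917; BDGP6 chromosome 2R, 18232761 to 18236311, plus strand) had the highest log2 fold change of the 8. It had 199, 66.9 and 222 normalised counts in the water libraries against 258, 212 and 229 with dsRNA. The low value of water replicate 2 set it apart from the other 5, which lay between 199 and 258 with 1 water library above 1 dsRNA library. Within same-numbered pairs fj was higher with dsRNA in 3 of 3, as were 10.7% of all genes. Means were 163 ± 83.8 and 233 ± 23.5 (log2 0.69 ± 0.45, SE; interval −0.40 to 1.78; limma adjusted p = 0.999). Without water replicate 2 the log2 fold change was 0.14 ± 0.17 (interval −0.26 to 0.55). Unlike ft and ds, fj was not lower in dsRNA replicates 1 and 2 than in dsRNA replicate 3 by more than the 95% counting intervals of these libraries, which overlapped.

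Water replicate 2 was the lowest of the 6 libraries for ft, ds and fj (3 of 8 genes), as for 31.2% of all genes, and the highest for fz, dsh and Vang (3 of 8), as for 32% of all genes. Leaving it out moved the log2 fold changes of ft and ds to −0.90 ± 0.47 and −1.25 ± 0.78 (SE), with limma adjusted p = 0.891 for both and intervals of −2.01 to 0.21 and −3.09 to 0.59. Those of fz, dsh and Vang turned to 0.07 ± 0.08, 0.05 ± 0.07 and 0.11 ± 0.10. In that fit 0 of 8 passed and 0 of 8 had an unadjusted p under 0.05, against 0.0441% (0.0331% higher) and 3.63% of all genes. Groups that did not overlap were counted again with each other library left out. This gave 1 of 8, fj, without water replicate 3 or dsRNA replicate 2, where 14.5% and 9.52% of all genes did not overlap, and 0 of 8 without replicate 1 of either group or dsRNA replicate 3, where 14.4%, 9.53% and 29.4% did not. With other settings 0 of 8 passed as well, against 0.022% of all genes when scaled to total gene reads, 0.0172% with a mean of at least 5 CPM and 0.0551% with library quality weights.

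For ft and ds, water replicates 1 and 3 and dsRNA replicate 3 were the 3 highest libraries, an order noticed after the values were seen and shared by 11.8% of all genes. The counts of stan fell in that order too, with at most 5 reads per library and overlapping Poisson intervals. Whether its order goes beyond counting error was not tested.

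Lists of genes whose RNA changes with stage differed between libraries, each in its own way. Given as the log2 distance from the 6-library mean, the median of 5 segment-polarity genes (en, wg, hh, gsb and mid), which come on as gastrulation nears, lay at 0.23, −0.55 and 0.64 in the water libraries against −0.28, −0.17 and 0.47 with dsRNA. On that scale ft lay at 0.57, −1.95 and 1.29 in the water libraries against −0.51, −0.41 and 1.00 with dsRNA. Maternally loaded RNAs lay at −0.09, 0.52 and −0.03 in the water libraries against −0.38, −0.07 and 0.10 with dsRNA. The blastoderm markers lay at 0.04, −0.43 and 0.08 in the water libraries against 0.36, 0.19 and −0.22 with dsRNA. Of these 10 markers 0 passed with all libraries and 2 passed without water replicate 2, against 0.0441% of all genes in that fit. The 2 were nullo (log2 0.93 ± 0.09, SE, limma adjusted p = 0.0293) and ftz (−1.10 ± 0.08, limma adjusted p = 0.00335). Differences by stage and by dsRNA were not separated in these medians. Of these 3 lists only the median of the segment-polarity genes was highest in the same 3 libraries as ft and ds. In 3 of its 5 genes these were the 3 highest, against 11.8% of all genes. The exceptions were en, at 114.5 normalised counts in dsRNA replicate 3, and hh. For hh all 3 dsRNA libraries were above all 3 water libraries, as for 2.99% of all genes. It had 59.7, 30.9 and 107 normalised counts in water, then 167, 125 and 144 (log2 1.29 ± 0.44, SE, limma adjusted p = 0.999). That order is not particular to lists that change with stage. The median of the 6 Fat-Dachsous effectors, described below, was highest in the same 3 libraries, and 3 of the 6 had that order. It lay at 0.24, −1.25 and 0.49 in the water libraries against 0.04, −0.02 and 0.22 with dsRNA. The part of embryo stage in the values of ft, ds and fj was not tested.

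**Figure D4:**
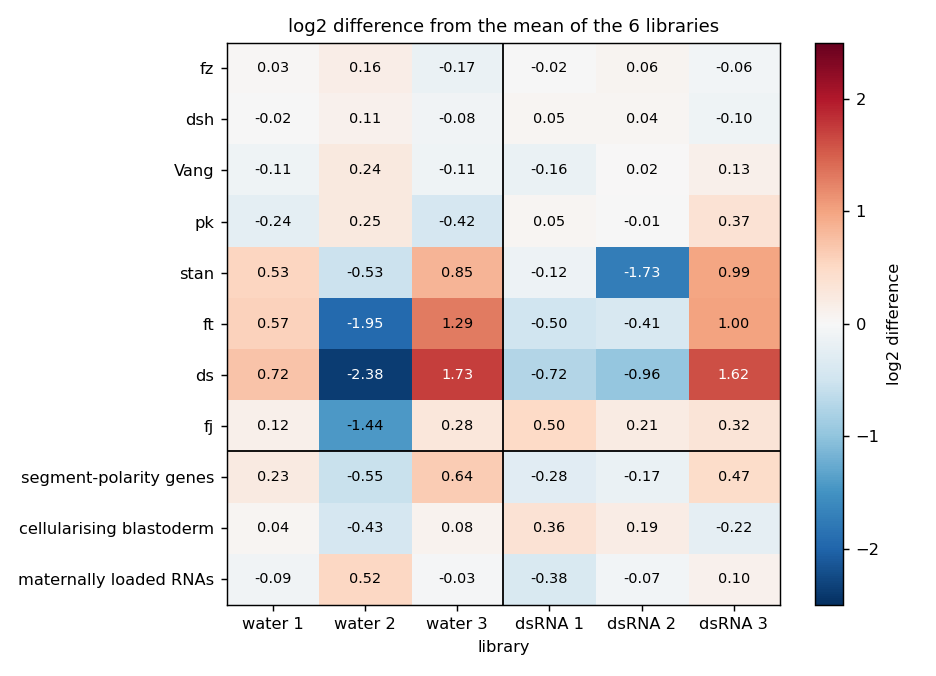
Log2 difference of each gene, or the median over each marker list (lower 3 rows), from its mean over the 6 libraries, by library. Values of ft and ds are low in water replicate 2 (−1.95 and −2.38) and high in water replicate 3 (1.29 and 1.73) and dsRNA replicate 3 (1.00 and 1.62), as are those of the segment-polarity list.

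The genes whose log2 values over the 6 libraries were most like those of each member were sought among 6228 genes with a mean of at least 100. For fj these were SoxN, a Sox-family transcription factor of the neuroectoderm (Pearson r = 0.998), and CG32533 (0.994). For ds they were Cdep (0.998) and side-V (0.997), and for ft CG42404 (0.997) and CG7656 (0.996). The likest genes of fz were CG13937 and Grx5 (0.992 and 0.990), those of Vang were CG33523 and mei-9 (0.997 and 0.996), and those of dsh were eRF1 and Rab35 (0.995 and 0.992). For pk they were Syx1A (0.983) and exu (0.980), an RNA-localising protein of the egg, and for stan CG8526 (0.979) and SMSr (0.977). With 6 libraries and this many genes searched, every member had a gene at 0.979 or above, so these values describe likeness and carry no test.

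SoxN had 3119, 1349 and 3530 normalised counts in the water libraries against 3789, 3240 and 3660 with dsRNA, low in the same 1 library as fj. Cdep had 458, 142 and 646 normalised counts in the water libraries against 285, 241 and 655 with dsRNA, high in the same 3 libraries as ds.

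Other genes of the planar polarity machinery did not pass either, with 0 of 11 measured members called. Their median log2 fold change was −0.03, and 1 of 11 had an unadjusted p under 0.05 (2.27% of all genes) and groups that did not overlap (6.35% of all genes). That gene was dco, the casein kinase 1 that acts on both the core and the Fat pathways. It had 20073, 29061 and 18422 normalised counts in the water libraries against 13067, 16296 and 15534 with dsRNA. All 3 dsRNA libraries were below all 3 water libraries, with water replicate 2 the highest (log2 −0.57 ± 0.18, SE; limma adjusted p = 0.999), and without that library the value was −0.37 ± 0.10 (limma adjusted p = 0.891). The core gene dgo, whose ankyrin-repeat product binds Dishevelled, was at 836 in water and 814 after dsRNA (log2 −0.03 ± 0.12). Inturned (in), an effector that limits the site of wing hairs, was at 5.03 and 8.61 (log2 0.73 ± 0.45), the myosin heavy chain zip at 13272 and 12310 (log2 −0.11 ± 0.11), and fuzzy (fy) at 447 and 478 (log2 0.09 ± 0.11). The pk-related LIM gene esn was at 66.5 and 66.4 (log2 0.00 ± 0.23), and Tes at 1958 and 1764 (log2 −0.14 ± 0.13).

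Downstream of Fat, 0 of 6 effectors passed, with a median log2 fold change of 0.23, which turned to −0.22 without water replicate 2. Dachs, the atypical myosin that Fat keeps from the membrane, is listed under 2 CG numbers, and the one with more reads (CG10595) had 242, 41.2 and 465 normalised counts in the water libraries against 175, 185 and 367 with dsRNA. Its log2 fold change was 0.45 ± 0.86 (SE), and −0.55 ± 0.40 without water replicate 2. Lowfat (lft), which binds the intracellular parts of Fat and Dachsous, was at 217, 64.3 and 238 in the water libraries against 235, 178 and 159 with dsRNA. The adaptor Dlish was at 84.7, 33.5 and 104 in the water libraries against 83.8, 63.9 and 109 with dsRNA, and the ubiquitin ligase subunit Fbxl7 at 908, 261 and 1192 against 750, 555 and 923. Water replicate 2 was the lowest of the 6 libraries for these 4 of 6 effectors (31.2% of all genes) and the highest for the other 2 (32% of all genes), the palmitoyltransferase app and the corepressor Gug. App had 5167, 6401 and 4837 normalised counts in the water libraries against 5453, 6089 and 5706 with dsRNA, and Gug had 31141, 33470 and 28821 normalised counts in the water libraries against 29050, 31595 and 29746 with dsRNA. Of 12 Hippo pathway genes, the growth-control cascade that Fat feeds, 0 passed and 9 had negative values, as did 50.5% of all genes (median −0.15, beside −0.002 for all genes). The lowest unadjusted p-values were those of Mer (log2 −0.14 ± 0.08), wts (−0.19 ± 0.11), sd (−0.25 ± 0.16) and kibra (−0.30 ± 0.20).

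Among 9 measured Frizzled-family and Wnt receptors 0 passed (median log2 fold change 0.01). Per kb the fz level of 2712 was above those of its relatives fz2 (80.8), fz4 (46.8) and fz3 (5.33), while smo, the Hedgehog pathway member of the family, was at 2450. The lowest unadjusted p-values were those of dnt (log2 0.22 ± 0.16), drl (0.67 ± 0.62), otk (0.38 ± 0.46) and fz3 (−0.28 ± 0.35). Without water replicate 2 these were 0.04, −0.02, −0.14 and −0.56, so that drl and otk turned in sign. Of 9 measured Wnt ligands and release factors 0 passed (median 0.04, and −0.22 without water replicate 2), 1 had an unadjusted p under 0.05 and in 2 the groups did not overlap, beside 2.27% and 6.35% of all genes. The first was Notum, which encodes a secreted enzyme that inactivates Wnt proteins. It had 1887, 1718 and 1732 normalised counts in the water libraries against 3771, 3556 and 2192 with dsRNA. All 3 dsRNA libraries were above all 3 water libraries (log2 0.80 ± 0.20, SE; limma adjusted p = 0.999), and the value was 0.77 ± 0.22 without water replicate 2. In BDGP6 it shares 148 bp of exon with other annotated features on the same strand, mir-4941 among them. Whether reads there were counted for Notum or set aside as ambiguous is not known, because the counting settings and annotation release are not stated. The other gene without overlap was Wnt5 (log2 0.07 ± 0.07). Wnt4 was at 10.4 and 6.47 (log2 −0.72 ± 0.48) and Wnt2 at 28.2 and 24.5 (log2 −0.25 ± 0.34).

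Of 10 genes downstream of dsh in Wnt signalling 0 passed (median log2 fold change 0.01), with the lowest unadjusted p-values for Apc (−0.28 ± 0.27), pygo (0.07 ± 0.09), gro (0.05 ± 0.06) and pan (−0.16 ± 0.27). Without water replicate 2 these were −0.01, 0.13, 0.01 and −0.44. Of 10 other cadherins measured 0 passed (median 0.18, beside −0.002 for all genes, and 0.03 without water replicate 2). Per kb the classical E-cadherin shg was at 3953, Cad87A at 2092 and the Fat-like cadherin kug at 759, against 13.8 for ft, 2.24 for ds and 0.217 for stan. N-cadherin (CadN) was at 8.69. The lowest unadjusted p-values were those of Cals (log2 0.16 ± 0.10), Cad87A (0.07 ± 0.05), Cad99C (0.57 ± 0.45) and shg (0.10 ± 0.08), which without water replicate 2 were 0.11, 0.03, 0.65 and 0.03.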

How the data were processed

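Poly(A) RNA of whole embryos was sequenced in 6 libraries, 3 per group, grouped by sample title, with 0 columns of other samples. Per the submitters' processing notes, TopHat2 2.0.9, Bowtie2, HTSeq, DESeq and the build dm3 were used, with settings, annotation release and strand use not stated. Each deposited value, a normalised signal by the authors, equals reads over a library size factor, plus 1 (100% whole within 0.01 read). The 3 rows that name no gene were left out. They held 12.4% to 14.8% (not unique), 0.72% to 0.75% (ambiguous) and 4.32% to 4.91% (no feature) of reads. Every listed gene had reads in at least 4 libraries, and 7 of the 8 genes had reads in all 6.

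Log2(normalised count + 1) was tested with limma 3.58.1 (trend, robust) in R 4.3.3, with Benjamini-Hochberg adjustment over 9073 genes at 0.05, a scale that understates changes of low genes. Recovered reads were tested with limma-voom, in place of count models. Quality weights used the gene-by-gene method, after the default did not converge. Symbols came from a RefSeq table (9027 matched). Positions and exon lengths came from BDGP6, another build than dm3, so per-kb levels are approximate (99.3% of genes had a length). Members and lists were chosen with earlier results of these data known. The rule for named genes took the 8 members, up to 4 genes of lowest p per pathway list, the targets and the 2 genes most like each member. Outside it, dgo, smo, fz2, fz4, kug, CadN, dachs and Fbxl7 were chosen after their values were seen. So were slam, bnk, nullo, ftz, en and hh from the marker lists.

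Libraries of a group differed by a chi-square of 15.8 to 80.5 per degree of freedom, so none was a copy. No label says that replicates were separate collections, and p-values then measure a spread that may be technical. Same-numbered libraries correlated at 0.243, 0.367 and 0.224 in their deviations from group means, all over 0.1. Water replicate 3 with dsRNA replicate 1 was also over that cut-off, at 0.11. The numbers were taken as paired from the data alone, and the cut-off does not establish that they were. The main fit and its intervals leave this pairing out. With the replicate block the SE was smaller for each of the 8 genes except pk (0.30 against 0.28). For ds it was 0.60 against 1.18, and for dsh 0.05 against 0.07. Alternatives were the replicate block, each library left out, other scalings and pseudocounts, a low-count filter, limma-voom and quality weights.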

Additional observations from a re-analysis of the deposited data

How the results depend on the processing

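Under 14 alternative settings none of the 8 planar polarity genes passed, and the lowest adjusted p, 0.365, was that of stan with library quality weights. Of 109 values under alternatives 26 had the other sign, and fj and pk had the same sign throughout. With quality weights the log2 fold change was 0.0263 for fz, 0.04996 for dsh, 0.0658 for Vang, −0.87 for ft, −1.36 for ds and −1.42 for stan. Scaling to total gene reads gave 0.000633 for fz, 0.0017 for dsh and 0.00271 for Vang, and upper-quartile scaling gave 0.0323, 0.0333 and 0.0343, against an all-gene median of 0.04. With limma-voom dsh was at 0.00336 and ft at −0.13. Leaving out 1 library at a time moved fz from −0.0984 to 0.0683, dsh from −0.053 to 0.0457, Vang from −0.0738 to 0.108, stan from −1.21 to 0.154, ft from −0.90 to 0.721, ds from −1.25 to 0.806, pk from 0.127 to 0.463, fj from 0.143 to 1.00 and the median of the 8 from −0.028 to 0.216. It moved the number of genes called, 1 with all libraries, from 0 to 4 (4 without water replicate 2, and 0 without each of the other 5), and the number of the 8 whose groups did not overlap from 0 to 1. Quality weights called 5 genes and scaling to total gene reads 2. With the replicate block 0 genes were called and no call of the 8 changed, with ft at 0.06 ± 0.53 and fj at 0.69 ± 0.35 (SE). The cause was not tested for any of these changes. The filter of a mean of at least 5 CPM left out stan, pk and ds. Depth limits stan, with 18 reads in all.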
